A study of Mus musculus with 10 samples.

Results

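The genes of amyloid-beta (Aβ) clearance and transport were examined in the endothelial cells of the brain (BECs), in female APP/PS1 mice and age-matched control female mice at an age of 1 year. The group was defined by name. It comprised the receptors Lrp1, Lrp10 and Ager, the endocytic adaptor Picalm, the apolipoproteins Apoe and Clu, and the proteases Ece1, Ide and Mme. Of these 9 genes, 8 were matched by GENCODE M21 symbol among the 14106 genes of the expression table, and Ide was not analysed here. All 8 passed the filter on low counts that was applied before the table was made.

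The 10 libraries fell into 2 groups of 5, and each control library shared a replicate number with 1 APP/PS1 library. APP/PS1 mice carry 2 transgenes, a mouse/human hybrid of amyloid precursor protein bearing the Swedish mutation and a mutant human presenilin 1 (PS1DE9). The study describes both as expressed ubiquitously, so the BECs carry them too, and plaques of Aβ build up with age. The control mice, labelled WT, had the same C3H/BL6 background. Cells were taken from the perfused, dissociated cortex by myelin removal and CD31 microbeads, and the number of mice behind each library is not given in the sources used here. Each SD is therefore a spread between libraries. The main p values, from a model with the pairs, measure only the spread of the differences within pairs of libraries.

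Aβ leaves the brain in part across the endothelium of the blood-brain barrier. LRP1 on the brain-facing side binds Aβ, alone or with a lipoprotein, PICALM couples the receptor to clathrin-coated vesicles, and AGER (RAGE) carries Aβ the other way, from blood to brain. APOE and clusterin bind Aβ as chaperones, while the metalloproteases neprilysin (Mme), endothelin converting enzyme (Ece1) and insulin degrading enzyme (Ide) cut it. LRP10 is a related receptor that binds APOE-containing lipoproteins and sorts cargo between the Golgi and endosomes.

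Values are log2 CPM, the log2 of counts scaled to the total of the library (CPM) with a small prior count, and the authors' methods state a batch correction, though the values do not match the step as described. In the deposited values the mean of each pair of libraries was almost the same, so within a pair a low control value comes with a high APP/PS1 value, and the difference within the pair is the quantity that is free to vary. Differences were tested with limma on all 14106 genes, with genotype and the 5 pairs in the model and p values adjusted over all genes by the Benjamini-Hochberg method. A model without the pairs treats the equal pair means as free to vary, so its p values come out too small. They are given for comparison only. Totals recovered from the values ranged from 22371766 to 126686149 adjusted counts per library, and replicate 1 was the lowest in both groups. The endothelial markers Pecam1 (10.80 log2 CPM) and Cldn5 (10.41) were abundant, and the 12 endothelial markers summed to between 20729 and 21461 CPM in control and between 21463 and 22323 in APP/PS1 libraries. Genes of other cell types were also detected, and their values are given beside the results they accompany.

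With the pairs in the model, limma called 0 of the 8 Aβ clearance genes at an adjusted p under 0.05, against 0.0% of all genes. At an unadjusted p under 0.05 there were 2 of 8, against 8.03% of all genes. One was Lrp1, lower, as 5.91% of all genes were by that rule, and the other was Picalm, higher, as 2.13% were. Without the pairs in the model 0 of 8 were called, against 4.59% of all genes (3.23% lower). limma-voom called 0 of the 8 as well. A difference in the same direction in all 5 pairs was seen for 0 of 8 members, against 7.99% of all genes, and the groups were without overlap for 0 of 8, against 7.88% (4.96% lower and 2.91% higher). With almost equal pair means these 2 criteria largely repeat each other. In at least 4 of the 5 pairs 5 members kept 1 direction, against 43.9% of all genes. The median log2 fold change was −0.02 over the members and −0.0038 over all genes.

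**Figure D1:**
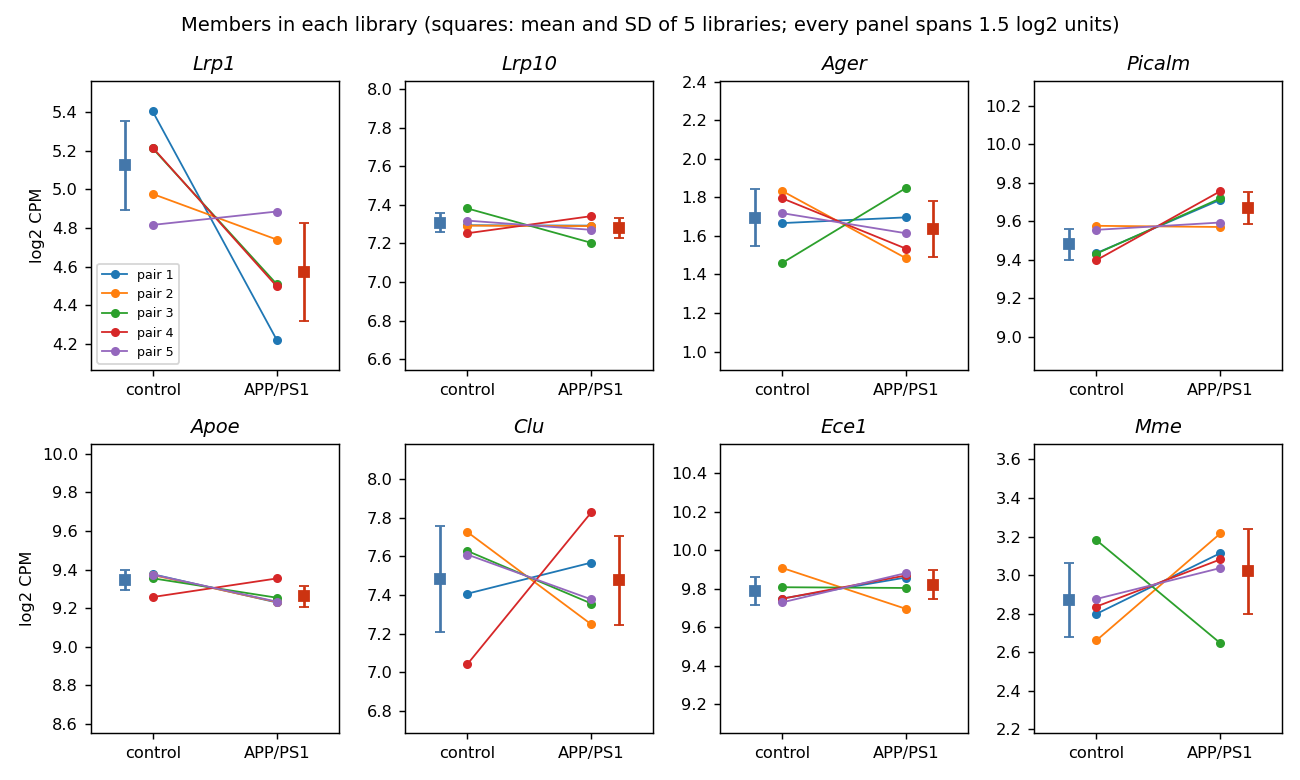
Each panel shows 1 gene, with log2 CPM on the vertical axis and the 5 control and 5 APP/PS1 libraries joined by pair; squares with bars are the mean and SD of the 5 libraries of a group, and every panel spans 1.5 log2 units. Lrp1 was lower in the APP/PS1 library of 4 pairs and Picalm higher in 4, whereas the lines of Ager, Clu and Ece1 ran in both directions.

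Levels can be compared between genes only per length. Per kb of annotated exon, Apoe had the highest mean level, 8.21 log2 CPM per kb over the 10 libraries, and 99.4% of all genes were lower. Ece1 followed at 7.40, Clu at 5.70, Picalm at 5.60 and Lrp10 at 5.14 log2 CPM per kb. Much lower stood Lrp1 at 0.70, Ager at 0.57 and Mme at −0.58, so that the range from Apoe to Mme spanned 443-fold. The order of most neighbours held in all 10 libraries. The exceptions were Clu and Picalm, which kept this order in 6 of 10 libraries with a gap of 0.10 ± 0.21 log2 units (SD, n = 10), and Lrp1 and Ager, which kept it in 7 of 10 with a gap of 0.13 ± 0.40. Exon length is the union of all annotated transcripts of a gene, so a gene with long alternative exons, such as Picalm with 15732 bases, is placed lower than its main transcript would be.

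**Figure D2:**
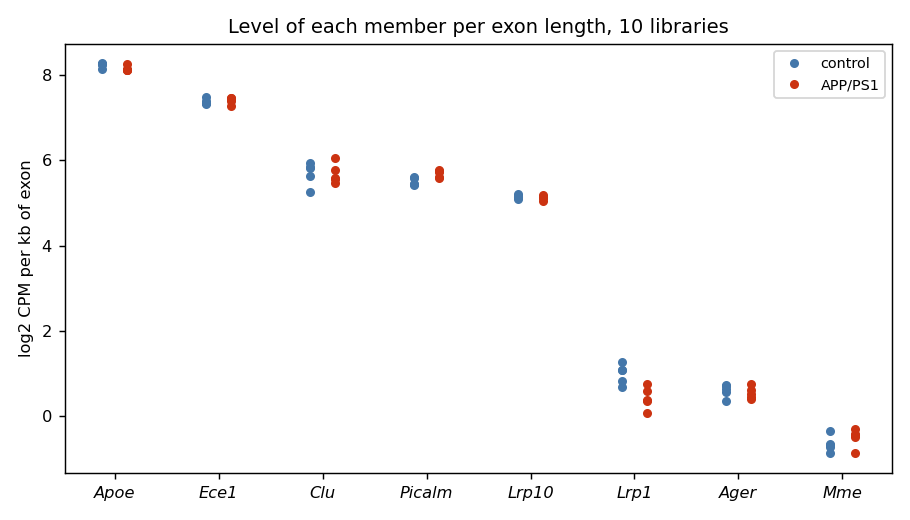
Levels of the 8 genes in log2 CPM per kb of exon, with 1 point per library in control (blue) and APP/PS1 (red) mice. Apoe, Ece1, Clu, Picalm and Lrp10 lay above 5 log2 CPM per kb on average, and Lrp1, Ager and Mme below 1.

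Lrp10 was the highest of 17 genes of the low density lipoprotein (LDL) receptor family and its partners per kb of exon, and Lrp1 was the 10th. The level of Lrp10 was 21.6-fold that of Lrp1 per kb and was above it in all 10 libraries. The 150 bases before the RefSeq start of each of these receptors and of Picalm are printed here, 5′ to 3′ on the strand of the gene, because Lrp1 and Picalm had the largest differences relative to their errors and Lrp10 is the abundant relative of Lrp1. They come from RefSeq on GRCm38.p6, and capitals mark each GC box, GGGCGG or its reverse complement CCGCCC, a sequence that factors of the Sp family bind.
Lrp1, chr10:127621149-127621298, minus strand: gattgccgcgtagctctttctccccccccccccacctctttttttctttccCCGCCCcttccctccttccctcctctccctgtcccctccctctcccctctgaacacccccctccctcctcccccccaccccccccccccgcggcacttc
Lrp10, chr14:54463997-54464146, plus strand: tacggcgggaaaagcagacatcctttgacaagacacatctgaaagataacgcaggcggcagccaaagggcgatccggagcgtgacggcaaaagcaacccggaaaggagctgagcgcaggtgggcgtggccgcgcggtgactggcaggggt
Picalm, chr7:90130063-90130212, plus strand: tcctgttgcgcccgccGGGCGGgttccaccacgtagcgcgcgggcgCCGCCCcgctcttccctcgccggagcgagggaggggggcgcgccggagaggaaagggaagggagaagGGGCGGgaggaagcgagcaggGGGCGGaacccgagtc
The Picalm window held 4 GC boxes and 21 CpG dinucleotides, more CpG than 94.9% of the 32851 windows of this length before RefSeq starts. Lrp1 held 1 GC box and 5 CpG, and Lrp10 held 0 GC boxes and 14 CpG. A GC box was present in 28.6% of all windows. Ager had 2 CpG in its window, below the median of 4 over all windows. A start site was given for 7 of the 8 members, and Clu had no entry. These matches describe the letters of the windows only.

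Lrp1 had the largest difference of the group. In the control libraries of replicates 1 to 5 it was 5.40, 4.98, 5.21, 5.22 and 4.82 log2 CPM, and in the APP/PS1 libraries 4.22, 4.74, 4.51, 4.50 and 4.89. The APP/PS1 library was the lower one in pairs 1 to 4, and pair 5 went slightly the other way, so that the groups overlapped only through that pair. Means were 5.13 ± 0.23 for control and 4.57 ± 0.25 for APP/PS1 libraries (SD, n = 5 per group). The difference was −0.55 on the log2 scale, with a standard error of 0.184 and a 95% interval from −1.01 to −0.10, or 0.681-fold. The adjusted p was 0.569 by limma with the pairs in the model and 0.0593 without them. Within pairs the difference was −1.18, −0.24, −0.70, −0.72 and 0.07, and in a two-sided exact sign-flip test 4 of the 32 sign patterns over the 5 pairs gave a mean at least this far from 0, where 2 of 32 is the fewest possible, so that the test cannot pass 0.05. Among the 2205 genes whose level was within 0.5 log2 units of Lrp1, 98.2% had differences that varied less from pair to pair. Without replicate 1 the log2 fold change was −0.40, and without replicate 5 it was −0.71. Lrp1 lies on chromosome 10 from 127538161 to 127621148 of GRCm38 (mm10), and its measured neighbours Shmt2 and Stat6 had log2 fold changes of −0.00058 and 0.0016.

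Lrp1 is known from many brain cells other than endothelium, among them neurons, astrocytes and the mural cells (pericytes and smooth muscle cells) that surround vessels. Mural genes were lower in the same pairs. Of 12 mural markers 11 were measured, and all 11 had a lower mean in APP/PS1 libraries. Their median difference was −0.76 on the log2 scale, and 0 passed an adjusted p under 0.05. By limma 9 had an unadjusted p under 0.05, against 5.91% of all genes that were lower by that rule. Without the pairs 4 passed the adjusted threshold, against 3.23% of all genes that were lower. The summed level of the mural markers ranged from 617 to 1037 CPM in control and from 322 to 620 CPM in APP/PS1 libraries. Within pairs 1 to 5 the log2 ratio of these sums was −1.69, −0.32, −0.42, −1.34 and 0.01. Pair 1 was thus the lowest and pair 5 the highest both for Lrp1 and for the mural markers. By the median difference over each list, pair 1 was also the lowest for astrocyte (−2.11), neuronal (−1.11) and oligodendrocyte markers (−3.62). For fibroblast and choroid plexus markers pair 1 was the lowest (−0.96) and pair 5 the highest (−0.19). By medians this order was therefore not particular to the mural markers. By the summed level pair 1 was also the lowest for astrocyte (−0.18) and oligodendrocyte markers (−2.75). The sum of the fibroblast and choroid plexus markers, however, was highest in pair 1 (0.52) and lowest in pair 2 (−1.08). That of the neuronal markers was lowest in pair 5 (−0.26). Rgs5, a pericyte marker, had a log2 fold change of −0.76, and Pdgfrb, the pericyte receptor for platelet derived growth factor, of −0.75, with adjusted p = 0.607 and 0.619 by limma in that order. In bulk samples, fewer cells of a type and less RNA per cell cannot be told apart.

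Markers of other cell types varied from list to list. Of 12 astrocyte markers, 11 had a lower mean in APP/PS1 libraries, and the median difference was −0.66 on the log2 scale. Their summed level, between 285 and 328 CPM in control and between 282 and 336 CPM in APP/PS1 libraries, overlapped almost fully, and Gja1 and Fgfr3 made up most of it. Aqp4, the water channel of astrocyte endfeet, was at −0.71 log2 CPM. Of the 4 neuronal markers measured of 10, 3 had a lower mean, and the sum was between 93.0 and 117 CPM in control and between 97.7 and 123 in APP/PS1 libraries. Stmn2 made up most of that sum and had a log2 fold change of 0.02. Gad1, Slc17a7 and Snhg11 had −0.18, −1.05 and −1.85, the last 2 with as few as 3 and 1 adjusted counts in a library. Fibroblast and choroid plexus markers, 5 measured of 10, had a lower mean for 4 and summed to between 23.0 and 37.4 CPM and between 17.7 and 32.95 CPM. Aqp1 was the most abundant of these 5, with a log2 fold change of 0.43, and the other 4 lay between −0.68 and −0.38. All 9 oligodendrocyte markers had a lower mean (median −1.83), with sums of 65.6 to 311 CPM in control and 46.2 to 161 CPM in APP/PS1 libraries. Erythroid markers, 4 measured of 6, were lower in mean for all 4 and ranged from 29.4 to 241 CPM and from 14.3 to 153 CPM. By limma 5 of 9 oligodendrocyte, 2 of 12 astrocyte and 2 of 4 neuronal markers were lower at an unadjusted p under 0.05. So were 2 of 5 fibroblast and choroid plexus markers and 0 of 4 erythroid markers, against 5.91% of all genes. Without the pairs 2 oligodendrocyte, 1 astrocyte and 1 fibroblast and choroid plexus marker passed the adjusted threshold, all lower, against 3.23% of all genes. By contrast the 12 endothelial markers had a median log2 fold change of 0.05. The part of the mural and other cells in the difference of Lrp1 was not tested.

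**Figure D3:**
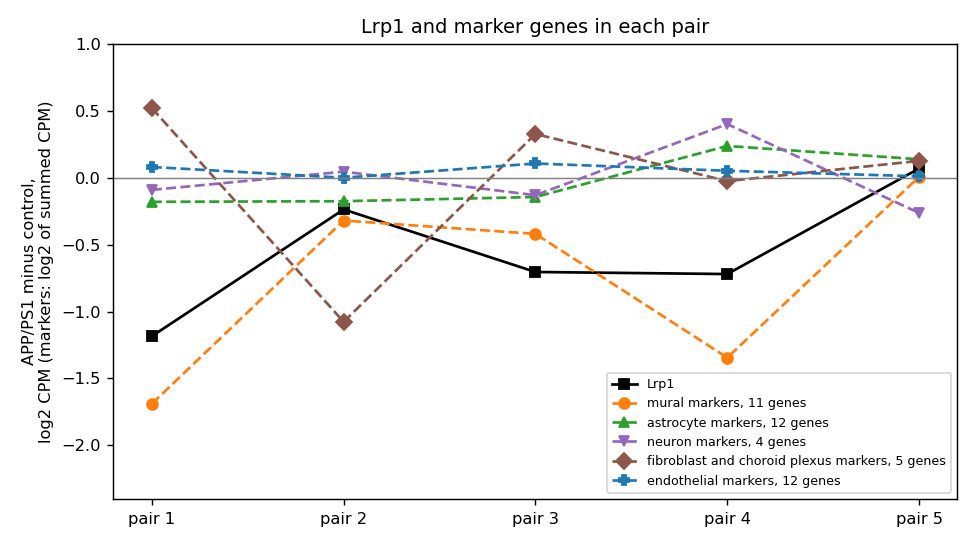
For each of the 5 pairs, the difference between the APP/PS1 and the control library is plotted for Lrp1 (log2 CPM) and for the summed CPM of marker lists (log2). Lrp1 and the mural markers were most negative in pair 1 and near 0 in pair 5, and the endothelial markers stayed between 0.00017 and 0.11 in every pair. Oligodendrocyte markers, not drawn, were also most negative in pair 1 (−2.75) and were highest in pair 2 (1.29). Gja1 and Fgfr3 made up most of the astrocyte sum, and Stmn2 most of the neuronal sum. By the median difference over each list, pair 1 was at −2.11 for astrocyte and −1.11 for neuronal markers.

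Lrp10 showed little difference. It was 7.29, 7.29, 7.38, 7.25 and 7.32 log2 CPM in the control libraries and 7.29, 7.29, 7.20, 7.34 and 7.27 in the APP/PS1 libraries of replicates 1 to 5. The groups overlapped over most of their range. On the log2 scale the difference was −0.03 (SE 0.0530, adjusted p = 0.923 by limma), and its 95% interval, from −0.16 to 0.10, spans 0.895-fold to 1.07-fold. Lrp10 lies on chromosome 14 from 54464137 to 54471497, and an antisense gene that was not analysed here, Gm10366, shares 475 bases of its exons, so if strand was not used in counting, the 2 could not be told apart.

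Ager, the influx receptor, was weakly expressed and rested on 71 to 436 adjusted counts per library. Control libraries had 1.67, 1.83, 1.46, 1.80 and 1.72 log2 CPM and APP/PS1 libraries 1.70, 1.48, 1.85, 1.53 and 1.61. Pairs 1 and 3 were higher and pairs 2, 4 and 5 lower in APP/PS1 mice. The mean difference was −0.06 with a 95% interval from −0.34 to 0.22 (adjusted p = 0.927 by limma), or 0.789-fold to 1.17-fold. Ager lies on chromosome 17 from 34597862 to 34600936, tightly between Pbx2 (462 bases away) and Rnf5 (155 bases away). Of the 11 symbols listed for Ager ligands (S100 proteins and Hmgb1), 8 were matched to a measured gene, 0 were called, and 6 had a lower mean. S100b, a calcium-binding protein of glia, differed by −1.65 on the log2 scale (SE 0.439), with adjusted p = 0.537 by limma with the pairs and 0.0331 without. It was weakly expressed, at −0.26 log2 CPM and with as few as 6 adjusted counts in a library. S100a6 differed by 0.45 (adjusted p = 0.731).

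Picalm, the clathrin adaptor, had a higher mean in APP/PS1 libraries. It was 9.43, 9.58, 9.43, 9.40 and 9.56 log2 CPM in the control and 9.71, 9.57, 9.72, 9.76 and 9.59 in the APP/PS1 libraries of replicates 1 to 5. In pairs 1, 3 and 4 the APP/PS1 library was the higher one by 0.28, 0.29 and 0.36, and pairs 2 and 5 differed by −0.0060 and 0.04, so that the groups overlapped slightly. Means were 9.48 ± 0.08 for control and 9.67 ± 0.08 for APP/PS1 libraries (SD, n = 5 per group). The difference was 0.19 on the log2 scale, with a standard error of 0.0719 and a 95% interval from 0.01 to 0.37, or 1.14-fold. The adjusted p was 0.598 by limma with the pairs in the model and 0.0642 without, and 4 of 32 sign patterns were at least as far from 0 in the exact sign-flip test. Its log2 fold change ranged from 0.15 without replicate 4 to 0.24 without replicate 2. Each value rested on at least 16091 adjusted counts. Picalm lies on chromosome 7 from 90130213 to 90213465, and 4 unconfirmed transcripts annotated on the same strand within it shared 0 of its exon bases.

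Of 37 genes of clathrin-mediated endocytosis measured, Picalm included, 21 had a higher and 16 a lower mean, the median log2 fold change was 0.02, and 0 were called. Picalm was the 7th highest per kb of exon. Fcho2, which starts coated pits, had a log2 fold change of 0.12, and Hip1, an adaptor that links clathrin to actin, one of 0.10. limma gave adjusted p = 0.734 for Fcho2 and 0.754 for Hip1. On the lower side were Fcho1 (−0.28, adjusted p = 0.587) and the neuronal Picalm relative Snap91 (−1.57, adjusted p = 0.652), the latter with as little as 1 adjusted count in a library.

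**Figure D4:**
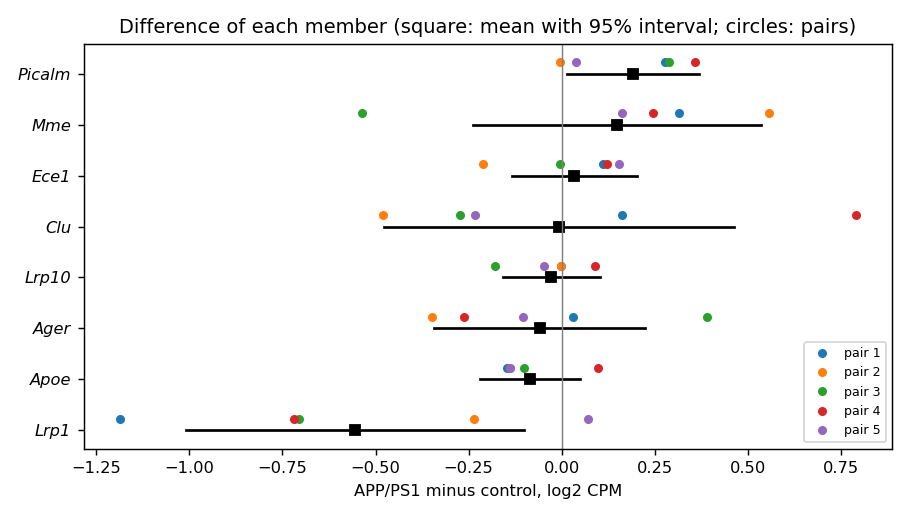
The difference between APP/PS1 and control libraries in log2 CPM, with the mean (square) and its 95% interval (line) for each gene and the 5 pairs as circles. The intervals of Lrp1 and Picalm did not include 0 before adjustment over all genes, and those of the other 6 genes did.

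Both apolipoprotein genes were abundantly expressed. Apoe was 9.38, 9.37, 9.35, 9.26 and 9.37 log2 CPM in control and 9.23, 9.23, 9.25, 9.35 and 9.23 in APP/PS1 libraries of replicates 1 to 5. Pairs 1, 2, 3 and 5 differed by −0.15, −0.14, −0.10 and −0.14, and pair 4 by 0.10. On average APP/PS1 libraries differed by −0.09 (SE 0.0546, 95% interval −0.22 to 0.05, adjusted p = 0.795 by limma), or 0.942-fold, and without replicate 4 it was −0.13 (adjusted p = 0.793). In the exact sign-flip test 4 of 32 sign patterns were at least as far from 0. Apoe lies on chromosome 7 from 19696109 to 19699188, between Apoc1 (−1.36 log2 CPM, log2 fold change 0.45) and Tomm40 (4.41 log2 CPM, log2 fold change 0.04). Apoe is known to be made mostly by astrocytes and microglia in the brain. The 11 microglial markers measured of 12 had a summed level of 58.9 to 72.0 CPM in control and 55.2 to 67.7 CPM in APP/PS1 libraries, 6 of 11 had a lower mean, and Cx3cr1 and P2ry12 stood at 0.53 and −0.37 log2 CPM. Their part and that of the astrocytes in the level of Apoe was not tested.

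Clu, which encodes clusterin, and Lrp1 had the largest SDs of the within-pair difference among the members. It was 7.41, 7.73, 7.63, 7.04 and 7.61 log2 CPM in control and 7.57, 7.25, 7.36, 7.83 and 7.38 in APP/PS1 libraries. Pair 4 differed by 0.79 and pair 2 by −0.48, so the directions cancelled. The mean difference was −0.01 with a wide 95% interval from −0.48 to 0.46 (adjusted p = 0.997 by limma), and 98.0% of the 980 genes of like level varied less between pairs. With pair 4 left out it was −0.21. Clu lies on chromosome 14 from 65968483 to 65981547. Pair 4 was also the pair in which Apoe differed upward.

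Among 17 measured genes of apolipoproteins and their lipidation, Apoe ranked 2nd and Clu 4th per kb of exon, below Pltp, the phospholipid transfer protein. In this list 8 had a higher and 9 a lower mean, 0 were called, and the median log2 fold change was −0.01. Scarb1, the HDL receptor, was higher in 5 of 5 pairs by a mean of 0.07 log2 units (adjusted p = 0.792 by limma). Nr1h3, the lipid-sensing nuclear receptor LXR alpha, was lower in 5 of 5, with a mean difference of −0.21 (adjusted p = 0.608). Apod had a log2 fold change of −0.28 (adjusted p = 0.767), and the weakly expressed Apoa2 one of 0.96 (adjusted p = 0.756) that rested on pair 5, where it was 3.26.

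The proteases differed in level far more than between genotypes. Ece1 was the highest of 14 measured Aβ-degrading proteases per kb of exon, ahead of Plat, the tissue plasminogen activator, and Mme was the 12th. Ece1 was 9.75, 9.91, 9.81, 9.75 and 9.73 log2 CPM in control and 9.86, 9.70, 9.80, 9.87 and 9.88 in APP/PS1 libraries. The APP/PS1 library was higher in pairs 1, 4 and 5, lower in pair 2, and differed by −0.0039 in pair 3. The mean difference was 0.03 (SE 0.0678, adjusted p = 0.930 by limma), with a 95% interval from −0.13 to 0.20, or 0.911-fold to 1.15-fold. Leaving out 1 pair at a time gave 0.0034 (without replicate 5) to 0.09 (without replicate 2). Ece1 lies on chromosome 4 from 137862237 to 137965229.

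Mme, the gene of neprilysin, was weakly expressed with 161 to 965 adjusted counts per library. It was 2.80, 2.66, 3.18, 2.84 and 2.88 log2 CPM in control and 3.11, 3.22, 2.65, 3.08 and 3.04 in APP/PS1 libraries. The APP/PS1 library was higher in 4 pairs, and pair 3 went the other way by −0.53. The mean difference was 0.15 with a 95% interval from −0.24 to 0.54 (adjusted p = 0.868 by limma), and without replicate 3 it was 0.32 (adjusted p = 0.929). Mme lies on chromosome 3 from 63241537 to 63386030. Of the 14 proteases 7 had a higher and 7 a lower mean and 0 were called. Mmp14, a membrane metalloprotease and the nearest measured neighbour of Lrp10 on chromosome 14, was lower in 5 of 5 pairs with a log2 fold change of −0.79 (adjusted p = 0.593). Mmp14 was weakly expressed, at 0.43 log2 CPM and with as few as 12 adjusted counts in a library. Ece2 had one of −0.28 (adjusted p = 0.641), Mmp2 of 0.17 (adjusted p = 0.874) and Pitrm1 of 0.03 (adjusted p = 0.894).

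The LDL receptor family as a whole held 17 measured genes, of which 6 had a higher and 11 a lower mean, a median difference of −0.02 on the log2 scale, and 0 were called. Groups without overlap were seen for 2 of 17, against 7.88% of all genes. These were Sorl1, a sorting receptor, at −1.12 (SE 0.324), with adjusted p = 0.554 by limma with the pairs and 0.0441 without, and Vldlr, the receptor for very low density lipoprotein, at −0.78 (adjusted p = 0.618). Both were lower in 5 of 5 pairs, which largely repeats the lack of overlap, and both were weakly expressed, at 0.44 and −0.25 log2 CPM. The abundant members Ldlrad3 (0.11, adjusted p = 0.711) and Lrp6, a Wnt co-receptor (0.08, adjusted p = 0.784), were higher in 4 of 5 pairs. Among 15 further carriers and receptors linked to Aβ passage, 9 had a higher and 6 a lower mean and 0 were called. Igf1r (0.21, adjusted p = 0.665), Tfrc, the transferrin receptor (0.22, adjusted p = 0.733), Fcgrt, the neonatal Fc receptor (−0.07, adjusted p = 0.815), and Ttr, the transthyretin gene of choroid plexus (−1.03, adjusted p = 0.594), had the smallest p values in each direction.

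The 6 lists held 119 gene symbols other than the members, some of them names of the same gene. Of these symbols 101 were matched to a measured gene. Means of the 101 genes were higher for 50 and lower for 51, and the median log2 fold change was −0.00066. Of them limma called 0, with a smallest adjusted p of 0.537. At an unadjusted p under 0.05 there were 7, all lower, against 5.91% of all genes that were lower by that rule.

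**Figure D5:**
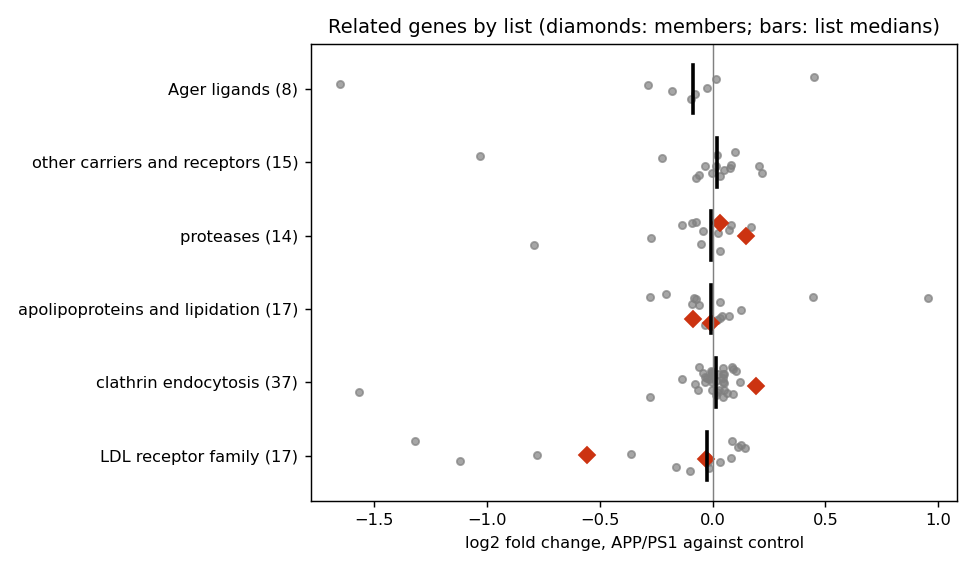
Log2 fold changes of the measured genes of each list on the horizontal axis, with the number of measured genes in brackets; diamonds are the Aβ clearance genes, and black bars are list medians. The medians lay between −0.09 for the Ager ligands and 0.02 for the carriers and clathrin genes, and Lrp1 and Picalm lay on opposite sides of their lists.

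Likeness between genes was measured as Pearson's r of log2 CPM over the 10 libraries, among genes with a mean of at least 2 log2 CPM. Values within pairs mirror each other, so r reflects 5 free differences and is given as a description. The genes most like Lrp1 were Gpm6a (r = 0.995, log2 fold change −0.77), Pknox2 (0.991, −0.24) and Bud13 (0.989, −0.11), each lower in 5 of 5 pairs. Those most like Picalm were Alkbh2 (0.996), Rtn4 (0.983) and Xpr1 (0.975), with log2 fold changes between 0.07 and 0.12. For Apoe they were Retreg2 (0.983), Plcd1 (0.976) and Hikeshi (0.974), and for Clu they were Csrp1 (0.988), Srarp (0.988) and Dusp2 (0.985). Ece1 was most like Gm4202 (0.996), Efnb1 (0.995) and Acly (0.991), and Mme most like Zdhhc18 (0.987), Chrnb2 (0.985) and Daxx (0.979). Lrp10 was closest to Idh3g (0.984), Tecr (0.982) and Aldh16a1 (0.974), and Ager to C1galt1 (0.985), Dcaf13 (0.983) and Smc4 (0.971).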

How the data were processed

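BECs of the cortex were profiled by bulk RNA sequencing in 10 libraries. By the study's methods and processing notes, the authors used STAR (mm10) for alignment and HTSeq-count for gene counts. edgeR served to filter genes of low count (filterByExpr) and to compute log CPM, and ComBat of sva to correct for batch; tool versions and strand setting are not given in the sources used here. The deposited values are log2 CPM of 14106 genes, and the 10 files per library equalled their columns of the table. In each library 100% of values converted to whole adjusted counts within 0.05 counts, with a mean prior count of 3. ComBat applied to log CPM, as the methods state it, would not leave whole counts, so the deposited values do not match that step, and how they were corrected is not given in the sources used here. The whole numbers were called adjusted counts, since their pair means are equal, and no counting interval was computed.

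Libraries were grouped by genotype and paired by replicate number. Per the labels there were 4 batches: replicates 1, 2 and 3 each had their own, shared by both genotypes, and replicates 4 and 5 shared the last. The pair means had a median SD of 0.00353 log2 units over the 5 pairs, also between pairs 4 and 5 (median difference 0.00306), against 0.0863 for deviations within pairs, and deviations of paired libraries from their group means correlated between −0.970 and −0.939 over 10873 genes, which the equal pair means fix. The labels' 4 batches do not account for equal means in 5 pairs, and the step that set them is not given in the sources used here. The main model held the pairs.

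limma 3.58.1 in R 4.3.3 (lmFit and eBayes) was fitted to the log2 values of all genes with genotype and pair, at an adjusted p under 0.05. Symbols, positions and exon lengths came from GENCODE M21 (GRCm38), where 14106 genes were found. The members and the lists were chosen with earlier results of these data known. Named genes were the members, the 2 higher and 2 lower genes of each list with the smallest p, the first 2 markers of each cell type and the 3 genes most like each member. Others were named after their values were seen (Pltp, Plat, Gja1, Fgfr3, Gad1, Snhg11, Aqp1, Cspg4, Pdgfra, Apoc1, Tomm40 and the neighbours). The fits were tested on simulated data. Alternatives were a model without pairs, 4 batches, a mean-variance trend, limma-voom, median-of-ratios scaling, a prior count of 0.125, a mean of at least 1 log2 CPM, a threshold of 0.10, each replicate pair left out and, added after the data were seen, total counts as library size.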

Additional observations from a re-analysis of the deposited data

Results flagged for a closer look

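In 32 groups of 5 libraries (8 genes and 8 marker lists in each genotype), a single library lay apart from the others by more than 0.71 of the group's range in 3, where 1.6 would be found by chance. Apoe in the control library of replicate 4, at 9.26 log2 CPM, lay below the other control libraries, of which the nearest was at 9.35. Apoe in the APP/PS1 library of replicate 4, at 9.35 log2 CPM, lay above the others, of which the nearest was at 9.25. These are the same pair, and the equal pair means make them 1 observation. The summed level of the oligodendrocyte markers in the APP/PS1 library of replicate 2, at 161 CPM, lay above the nearest other library at 66.0 CPM.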

How the results depend on the processing

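Under every alternative run, 0 of the 8 members passed an adjusted p under 0.05, and 0 did at a threshold of 0.10. The log2 fold change kept its direction under every alternative for Lrp1 (−0.71 to −0.40), Picalm (0.15 to 0.24), Apoe (−0.13 to −0.07) and Mme (0.05 to 0.32). It turned for Lrp10 without replicate 3 (0.0091), for Ager without replicate 2 (0.013), for Clu without replicates 2 (0.11), 3 (0.06) or 5 (0.05), and for Ece1 with total counts as library size (−0.0041), which moved the median of all genes to −0.04. The leave-one-out ranges were −0.058 to 0.0091 for Lrp10, −0.17 to 0.013 for Ager, −0.21 to 0.11 for Clu and 0.0034 to 0.09 for Ece1.

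Without the replicate block, that is without the pairs in the model, 648 of all genes were called in place of 0, 2 of the genes in the related lists (Sorl1 and S100b) in place of 0, and 0 of the members; the pairing changed no call of a member. The calls without the pairs rest on p values that are too small, because the equal pair means are treated as free. With the 4 batches of the labels 1 gene was called. Leaving out 1 replicate pair at a time gave 0 to 5 called genes among all (5 without replicate 2, 1 without replicate 5), and 0 to 2 members with the same direction in all remaining pairs. With total counts as library size, 1 member had the same direction in all 5 pairs. Ager and Mme rested on as few as 71 and 161 adjusted counts, both in replicate 1.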
